A study of Mus musculus with 17 samples.

Results

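Primary neurons treated with a reconstituted ApoE particle were set against control neurons of the same set, and the genes with a value in both groups were compared. The members are 4 of the series' 17 libraries, taken by their labels: 2 of neurons that received the reconstituted particle and 2 of neurons given control treatment. Another group of the same set, neurons treated with the ApoE particle (2 libraries), was used as the comparison that shares the table. All 6 libraries came from primary neurons of C57BL/6 mouse brain, and no group carried a genetic change that the labels name. The labels give neither what the reconstituted particle was made of, nor its dose or time, nor what the control treatment was. Age, sex and brain region of the animals are likewise missing from the labels. Whether a group's 2 libraries stem from 2 cultures is also unstated, so every p-value measures the spread between these libraries only, which may be technical.

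Apolipoprotein E (ApoE) is the main lipid-carrying protein that astrocytes release in the brain. Neurons take up its particles through lipoprotein receptors, and the cholesterol that arrives is sensed in the endoplasmic reticulum. When membrane sterol is low, the transcription factor SREBP-2 is released and drives the genes of cholesterol synthesis. When it is high, SREBP-2 is held back, and oxidised sterols can activate the nuclear receptor LXR, which induces the exporter Abca1. A reconstituted lipoprotein is in general one assembled in the laboratory from protein and lipid, as opposed to one taken from cells.

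The 4 libraries held 16.49 and 16.85 M counts (reconstituted particle) and 17.56 and 17.26 M (control), and the ApoE particle libraries 16.97 and 17.78 M. Of 30984 genes listed, 29495 had a value in all 6 libraries, 1258 of which were at 0 throughout, and 16388 passed the filter on low counts. The 1489 other genes had values in the reconstituted particle columns only, and it is not stated whether all 6 columns came from the same counting run. Whether a difference in counting bears on the values of the reconstituted particle against either other group was not tested. Neuronal and astrocyte markers were present in every library. The 12 excitatory neuron markers summed to 1572 and 1549 CPM (a gene's counts after scaling every library to the same size) with the reconstituted particle and 1487 and 1567 CPM in controls, and the 14 astrocyte markers to 2233 and 2382 against 2404 and 2273 CPM. The cultures thus held astrocyte transcripts too, and in bulk RNA fewer cells of a type and less RNA per cell cannot be told apart. Microglial markers were near the lower limit: 10 of 13 are in the complete table, 2 of them passed the filter, and their sum was 14.75 and 15.78 against 16.33 and 14.24 CPM. No marker of the 8 cell type lists that is in the complete table was at 0 in all 4 libraries.

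No gene was called changed by the reconstituted particle. In edgeR's quasi-likelihood test over the 3 groups, with Benjamini-Hochberg adjustment over all 16388 genes and a threshold of 0.05, the count was 0 (0%), and DESeq2 also gave 0. At an unadjusted p under 0.05 edgeR had 776 genes (4.74%), 375 higher (2.29%) and 401 lower (2.45%), and DESeq2 had 258. Both reconstituted particle libraries lay above both controls for 2689 genes (16.4%) and below both for 2732 (16.7%). The same fit called 3319 genes (20.3%) between the reconstituted and the ApoE particle, 1864 higher (11.4%) and 1455 lower (8.88%) with the reconstituted particle. For the ApoE particle against the same controls it called 3617 (22.1%), 1641 higher (10%) and 1976 lower (12.1%). These counts move with single libraries. With each of the 6 left out in turn, 1 to 4 genes were called between reconstituted particle and control: 4 without either ApoE particle library, 2 without control library 1, 4 without control library 2, 2 without reconstituted particle library 1 and 1 without library 2. Between reconstituted and ApoE particle 949 genes were lower without reconstituted particle library 2 and 930 without ApoE particle library 1. Between ApoE particle and control 2297 were called, 931 of them higher, without control library 1. A miss of the threshold does not show that reconstituted particle and control neurons were alike, so the size of change that each gene's interval still allows is given next.

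The sizes were small where counts were high. Over the 11554 genes that averaged 5 CPM or more, the median absolute log2 fold change of reconstituted particle over control was 0.063 and the 99th percentile 0.38; 17 genes differed by over 1.5-fold and 5 by over 2-fold. Between reconstituted and ApoE particle 224 of the same genes differed by over 2-fold, and between ApoE particle and control 226. Library against library, the standard deviation over genes of the log2 ratio was 0.166 to 0.18 for the 4 pairs of a reconstituted particle and a control library, against 0.178 between the 2 reconstituted particle libraries and 0.178 between the 2 controls. For the 4 pairs of a reconstituted and an ApoE particle library it was 0.425 to 0.476. A treated library was thus about as far from a control as the replicates of either group were from each other. Pairs of a reconstituted particle and a control library had 5 to 13 genes over 2-fold apart, while the reconstituted particle replicates had 14 and the control replicates 21.

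**Figure D1:**
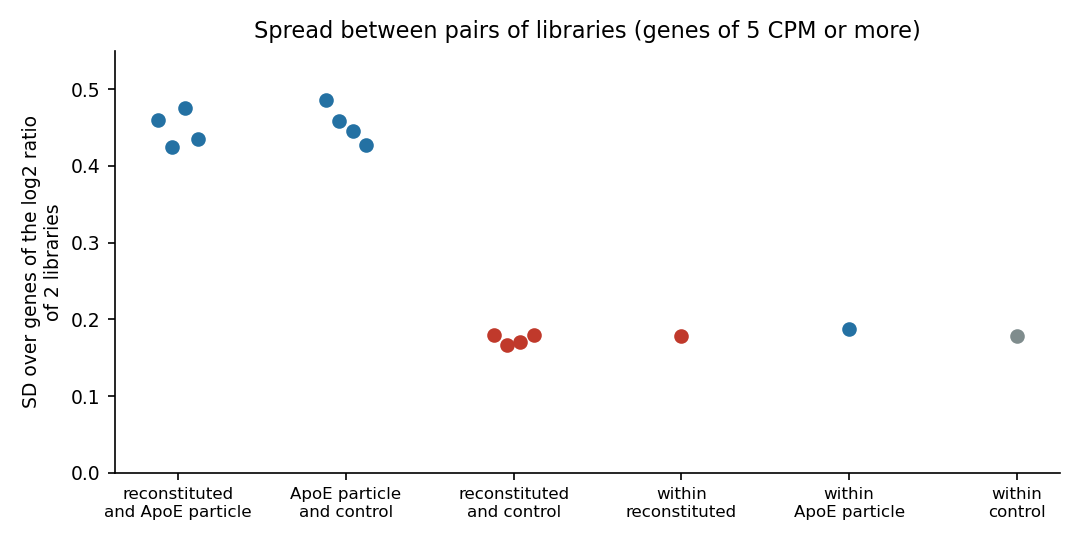
Standard deviation over genes of 5 CPM or more of the log2 ratio of 2 libraries (vertical axis, from 0), 1 point per pair, by kind of pair. The 4 pairs of reconstituted particle and control libraries lie at 0.166 to 0.18, beside 0.178 within either group, and pairs with an ApoE particle library lie at 0.425 or higher unless both are ApoE particle libraries.

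The change that could be missed depends on the level of the gene. Over all tested genes the median standard error of the log2 fold change was 0.125, the median half-width of its 95% interval was 0.26, and the interval lay wholly inside a 2-fold change in either direction for 13136 genes (80.2%) and inside a 1.5-fold change for 10944 (66.8%). For the 2548 genes at 100 CPM or more the median half-width was 0.114 and 99.6% of intervals lay inside 2-fold. For the 5486 genes from 20 to 100 CPM it was 0.178 (99.6%), and for the 3520 from 5 to 20 CPM it was 0.336 (98.6%). These 3 ranges leave little room for a 2-fold change in a well-expressed gene. Below that the data bound much less: of 3047 genes at 1 to 5 CPM 54.6% had an interval inside 2-fold, with a median half-width of 0.702, and of 1787 genes under 1 CPM 0.056% did, with a half-width of 1.28. The 9 genes with a group at 0 in both libraries have no interval.

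A lone gene needed an unadjusted p of 3.05e-06 to be called, because no other gene passed with it. At the median standard error of its range that is a 1.26-fold change at 100 CPM or more, 1.44-fold at 20 to 100, 1.98-fold at 5 to 20, 4.2-fold at 1 to 5 and 13.5-fold under 1 CPM. A rise or fall shared by many genes would lower this demand, since the adjustment is over all genes. The spread behind these figures was estimated from 3 residual degrees of freedom, moderated across genes to a median of 23.3, and it includes the 2 ApoE particle libraries. A gene that varies between those 2 libraries thus has a wider interval here.

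**Figure D2:**
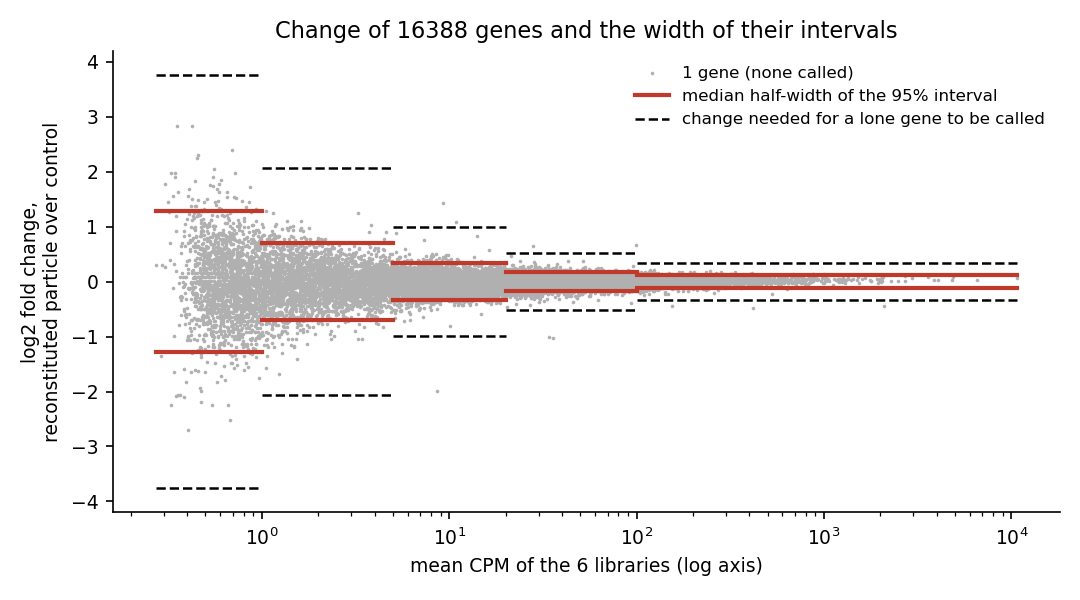
Log2 fold change of reconstituted particle over control (vertical axis) against mean CPM of the 6 libraries (log axis) for the 16388 tested genes. Red lines are the median half-width of the 95% interval in 5 ranges of CPM (1.28 down to 0.114) and dashed lines the change a lone gene needed to be called. Changes narrow towards 0 as the level rises.

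The promoters of 3 genes are shown, 1 from each of 3 gene groups whose values follow: interferon response, cholesterol synthesis and amino acid stress. The gene shown is the group's member of lowest p against the ApoE particle among those with a match. A match was thus a condition of being shown, and the gene need not be typical of its group. Each promoter is 300 bases from RefSeq (build GRCm38.p6), 250 before to 50 after the gene's start, 5′ to 3′ on the gene's strand, with matches in capitals. Ifit1 (chr19:34640639-34640938, + strand) is marked for the interferon-stimulated response element, searched on both strands as GAAA, 2 bases of any kind and GAAA again, with the first of its 2 matches 104 bases before the start. Hmgcs1 (chr13:119690101-119690400, + strand) is marked for the sterol regulatory element TCACNCCAC, 137 bases before the start. Asns (chr6:7693160-7693459, - strand) is marked for the C/EBP-ATF response element TGATGNAA, 23 bases before the start.
Ifit1: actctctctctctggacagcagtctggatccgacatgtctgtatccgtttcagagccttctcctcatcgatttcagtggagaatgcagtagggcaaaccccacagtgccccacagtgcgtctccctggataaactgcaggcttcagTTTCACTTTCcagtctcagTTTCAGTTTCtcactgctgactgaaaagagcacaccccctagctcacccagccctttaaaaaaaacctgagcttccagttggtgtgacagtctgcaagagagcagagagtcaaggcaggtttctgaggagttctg
Hmgcs1: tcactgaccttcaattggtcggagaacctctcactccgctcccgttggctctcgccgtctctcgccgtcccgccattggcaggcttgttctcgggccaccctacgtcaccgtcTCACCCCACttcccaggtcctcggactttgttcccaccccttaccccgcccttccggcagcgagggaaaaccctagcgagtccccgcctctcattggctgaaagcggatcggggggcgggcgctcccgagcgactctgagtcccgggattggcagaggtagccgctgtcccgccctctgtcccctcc
Asns: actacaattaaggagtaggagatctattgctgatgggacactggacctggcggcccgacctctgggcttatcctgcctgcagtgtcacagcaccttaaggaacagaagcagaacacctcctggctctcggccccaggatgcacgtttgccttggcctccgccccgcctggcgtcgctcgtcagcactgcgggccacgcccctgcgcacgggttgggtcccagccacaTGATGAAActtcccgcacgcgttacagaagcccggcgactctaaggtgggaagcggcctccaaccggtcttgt
The first motif was in 3.44% of 32851 promoters and in 8 of 14 tested interferon-stimulated genes with a promoter, the second in 1.24% and in 1 of 15 cholesterol synthesis genes, and the third in 3.97% and in 5 of 19 integrated stress response genes. The percentages are over single promoters, while a listed gene counts if any of its promoters has a match. Each printed promoter is marked for its own group's motif only, and no match runs into another in these 3. A match is a description of letters, not a bound site.

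Genes of cholesterol synthesis kept close to their control level with the reconstituted particle. Of 20 tested, 0 were called in either direction against control; the median log2 fold change was -0.006, beside 0 over all tested genes, and the members ran from -0.15 to 0.26. All 20 intervals lay inside a 2-fold change and 19 inside 1.5-fold. Against the ApoE particle 15 of the 20 were called higher and 0 lower, with a median difference of 0.70, beside -0.002 over all tested genes. Over all tested genes 11.4% were called higher and 8.88% lower against the ApoE particle. The counts of every list below are to be read beside these shares.

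Hmgcs1, which makes the HMG-CoA that enters the pathway, had 924 and 883 CPM with the reconstituted particle, 465 and 390 CPM with the ApoE particle and 862 and 854 CPM in controls. Both reconstituted particle libraries were above both controls by a small margin and far above the ApoE particle libraries. The difference from control was 0.08 ± 0.07 (log2, SE; 95% interval -0.09 to 0.24; adjusted p = 1, edgeR), and from the ApoE particle 1.08 ± 0.07 (adjusted p = 1.52e-05). Mvd, which decarboxylates mevalonate diphosphate to isopentenyl diphosphate, had 66.3 and 71.3 CPM, 27.8 and 27.6 CPM with the ApoE particle, and 69.1 and 65.9 CPM in controls, with an interval against control of -0.12 to 0.18.

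Idi1, the isomerase that follows Mvd, was the list's member of lowest p. It had 54.9 and 48.5 CPM with the reconstituted particle, 23.1 and 20.9 CPM with the ApoE particle and 44.0 and 42.3 CPM in controls. The reconstituted particle libraries were above both controls, by 0.26 ± 0.09 (95% interval 0.08 to 0.44; unadjusted p = 0.00692 and adjusted p = 0.986, edgeR), so it was not called. Sqle, which opens the sterol branch by epoxidising squalene, had 261 and 271 CPM, 215 and 162 CPM with the ApoE particle and 264 and 274 CPM in controls. The spread of its ApoE particle libraries widened its interval against control to -0.45 to 0.42, and it was not called against the ApoE particle either (0.50 ± 0.15, adjusted p = 0.124).

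Sterol sensing and uptake genes gave 0 of 12 called against control (median 0.016) and 4 higher, 0 lower against the ApoE particle (median 0.12). Srebf2, which encodes SREBP-2, had 400 and 429 CPM with the reconstituted particle, 290 and 269 CPM with the ApoE particle and 401 and 411 CPM in controls. Its difference from control was 0.03 ± 0.05 and from the ApoE particle 0.57 ± 0.05 (adjusted p = 2.96e-09, edgeR). Insig1, which retains SREBP in the endoplasmic reticulum, overlapped in all 3 groups, at 101 and 89.6 CPM with the reconstituted particle, 87.4 and 91.5 CPM with the ApoE particle and 89.7 and 99.7 CPM in controls.

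LXR targets and efflux genes likewise gave 0 of 13 called against control (median -0.026), and 7 higher, 0 lower against the ApoE particle (median 0.22). Abca1, the exporter that lipidates ApoE, had 350 and 334 CPM with the reconstituted particle, 132 and 153 CPM with the ApoE particle and 333 and 329 CPM in controls. It differed from control by 0.05 ± 0.06 (95% interval -0.07 to 0.17) and from the ApoE particle by 1.26 ± 0.06 (adjusted p = 2.01e-12, edgeR). Abcg1, which exports cholesterol to lipidated particles, had 19.2 and 17.9 CPM against 16.3 and 14.2 CPM in controls, 0.28 ± 0.13 with an adjusted p of 1. Cyp46a1, the neuronal cholesterol 24-hydroxylase, had 35.1 and 41.1 CPM against 42.7 and 43.9 CPM in controls, -0.18 ± 0.09, also with an adjusted p of 1.

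Of the 16 fatty acid and acetyl-CoA genes 0 were called against control (median -0.002) and 6 were higher, 0 lower, against the ApoE particle (median 0.14). Acly, which makes cytosolic acetyl-CoA from citrate, had 379 and 406 CPM with the reconstituted particle, 311 and 327 CPM with the ApoE particle and 397.7 and 392.4 CPM in controls, with an interval against control of -0.11 to 0.08. Fasn, the fatty acid synthase, had 897 and 891 CPM, 643 and 646 CPM with the ApoE particle and 858 and 896 CPM in controls, with an interval of -0.06 to 0.11. Among the 14 histone acetyltransferases and 14 deacetylases, 0 of each were called against control (medians -0.009 and -0.061), and all 28 intervals lay inside 2-fold. At an unadjusted p under 0.05 (edgeR) 3 acetyltransferases were higher and 1 lower, and 0 deacetylases were higher and 1 lower. Over all tested genes these shares were 2.29% higher and 2.45% lower. Kat6a, an acetyltransferase of the MYST family, had 191 and 198 CPM against 169 and 187 CPM in controls (0.13 ± 0.05, unadjusted p = 0.0287, adjusted p = 1). Hdac3, the catalytic subunit of the NCoR corepressor complex, had 83.4 and 82.3 CPM against 93.7 and 90.7 CPM in controls (-0.15 ± 0.06, unadjusted p = 0.0211, adjusted p = 1).

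The transcript of ApoE itself was not called in either comparison. Apoe had 595 and 660 CPM with the reconstituted particle, 589 and 685 CPM with the ApoE particle, and 685 and 659 CPM in controls. The 3 groups overlap, and the interval against control was -0.28 to 0.08. These counts are of the cells' own transcript and do not measure protein added to the medium. Of 12 ApoE receptor genes 0 were called against control (median 0.017), and 7 were higher and 1 lower against the ApoE particle (median 0.29). Sorl1, a sorting receptor that binds ApoE, had 109 and 119 CPM with the reconstituted particle, 65.6 and 63.8 CPM with the ApoE particle, and 110 and 101 CPM in controls. Of the 8 tested apolipoprotein and lipoprotein remodelling genes 0 were called against control (median -0.114).

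**Figure D3:**
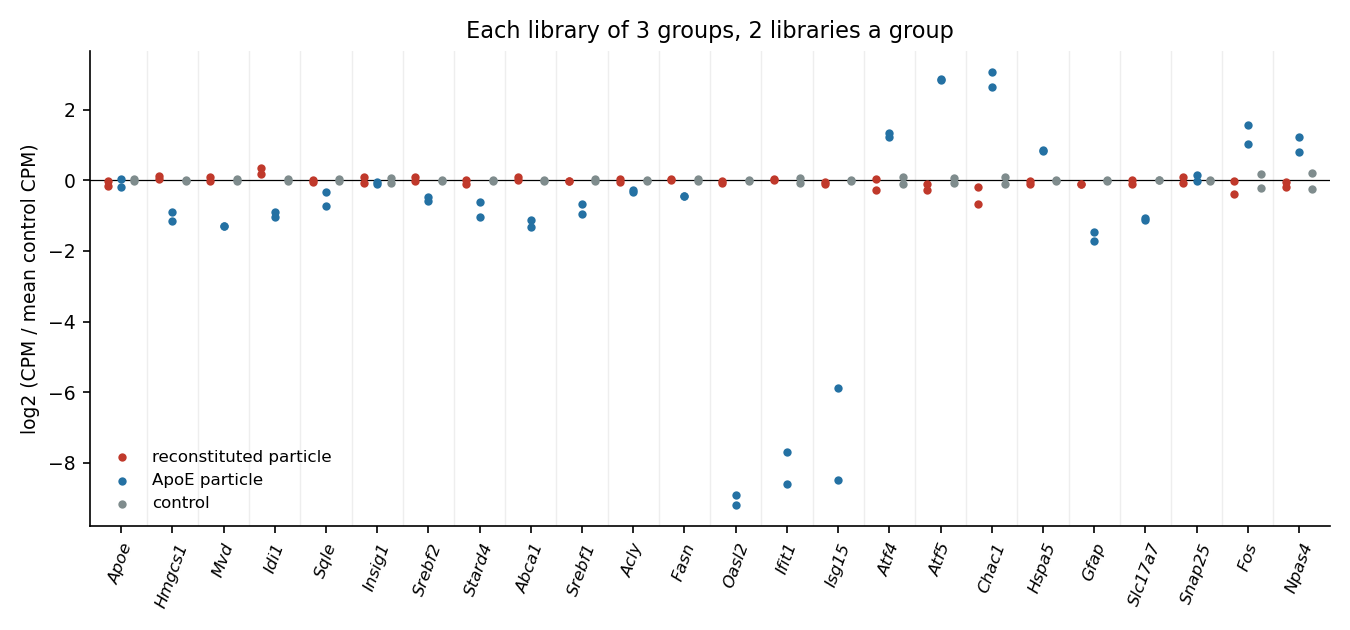
Log2 of CPM over the mean control CPM (vertical axis) for each library of 24 genes, with reconstituted particle, ApoE particle and control from left to right within a gene, 2 points each. Reconstituted particle points lie near the control points, whereas the ApoE particle points lie far below for Oasl2, Ifit1 and Isg15 and above for Atf5 and Chac1.

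Interferon-stimulated genes, which cells switch on through STAT2, IRF9 and their partners after interferon, stayed near the controls with the reconstituted particle. Of 20 tested, 0 were called against control (median -0.046, from -0.61 to 0.39), and 16 intervals lay inside 2-fold. The 2 members at 0 counts in both ApoE particle libraries have no interval. Against the ApoE particle all 20 were called higher; the median log2 difference was 5.39, or 5.26 with the 2 members that had no ApoE particle count put at the bound that 3 counts over the group allow. Oasl2, a member of the oligoadenylate synthetase family, had 370 and 357 CPM with the reconstituted particle, 0.65 and 0.78 CPM with the ApoE particle, and 375 and 379 CPM in controls. The reconstituted particle libraries were just below both controls, by 0.05 ± 0.05 on the log2 scale (interval -0.15 to 0.04). Ifit1, whose protein binds foreign RNA caps and whose promoter is printed above, had 47.0 and 45.9 CPM, 0.118 and 0.223 CPM with the ApoE particle, and 48.1 and 43.9 CPM in controls, and its interval against control was -0.17 to 0.20. Isg15, a ubiquitin-like modifier, had 55.2 and 57.3 CPM, 1.01 and 0.167 CPM with the ApoE particle, and 60.4 and 59.0 CPM in controls, with an interval of -0.33 to 0.16. Reads of Oas and Oasl genes may be shared among close copies, as may those of the MHC class I genes below.

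Within the interferon signalling list, 0 of 10 were called against control (median -0.011) and 6 were higher, 0 lower, against the ApoE particle (median 0.82). Stat2 and Irf9, which act in 1 transcription factor complex, were the members of lowest p. Stat2 had 136 and 130 CPM, 26.6 and 24.3 CPM with the ApoE particle, and 153 and 148 CPM in controls; both reconstituted particle libraries were below both controls, by 0.18 ± 0.06 (unadjusted p = 0.00802, adjusted p = 0.993, edgeR). Irf9 had 87.0 and 88.7 CPM, 14.4 and 12.4 CPM with the ApoE particle, and 101 and 95.4 CPM in controls, -0.16 ± 0.07 (adjusted p = 1).

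GTPases of the GBP and IRG families, effectors against intracellular pathogens, gave 0 of 12 called against control (median -0.065) and 12 higher against the ApoE particle (median 3.56). MHC class I presentation gave 0 of 12 against control (median -0.028) and 11 higher, 0 lower, against the ApoE particle (median 1.81). Tap1, a subunit of the peptide transporter for MHC class I loading, had 29.9 and 32.6 CPM with the reconstituted particle, 13.7 and 12.6 CPM with the ApoE particle, and 39.9 and 36.7 CPM in controls. Nlrc5, the transactivator of MHC class I genes, had 14.1 and 15.0 CPM, 3.25 and 2.90 CPM with the ApoE particle, and 19.8 and 17.3 CPM in controls. Both were below both controls, Tap1 by 0.29 ± 0.10 (unadjusted p = 0.00646, adjusted p = 0.982) and Nlrc5 by 0.35 ± 0.14 (unadjusted p = 0.0196, adjusted p = 1). In the MHC class I list 3 members were lower at an unadjusted p under 0.05 and 0 higher, none of them called, beside 2.45% lower and 2.29% higher over all tested genes.

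Genes of the integrated stress response, which ATF4 drives when amino acids run short or proteins misfold, gave 0 of 20 called against control (median -0.105, from -0.81 to 0.07); 18 intervals lay inside 2-fold. Of the 20, 7 lay below both controls and 0 above, beside 16.7% and 16.4% of all tested genes. At an unadjusted p under 0.05 (edgeR) 3 were lower and 0 higher, beside 2.45% and 2.29%. Against the ApoE particle 18 of the 20 were called lower and 0 higher (median -1.58). Atf4 had 136 and 111 CPM with the reconstituted particle, 335 and 313 CPM with the ApoE particle and 124 and 143 CPM in controls. Its interval against control, -0.42 to 0.19, has a half-width above the median of 0.114 for genes at 100 CPM or more. Atf5, a transcription factor induced by the response, had 15.5 and 17.4 CPM, 137 and 133 CPM with the ApoE particle, and 19.61 and 17.96 CPM in controls, with an interval against control of -0.39 to 0.01. Chac1, which degrades glutathione, had 6.64 and 4.72 CPM, 62.7 and 47.3 CPM with the ApoE particle, and 7.09 and 8.02 CPM in controls. For Chac1 the interval, -0.85 to 0.02, leaves a fall of over 1.5-fold possible. Ppp1r15a, which restores translation at the end of the response, had 20.7 and 15.0 CPM with the reconstituted particle, 51.8 and 48.1 CPM with the ApoE particle, and 23.02 and 23.3 CPM in controls (-0.38 ± 0.12 against control, unadjusted p = 0.00575, adjusted p = 0.982). Of 15 endoplasmic reticulum stress genes 0 were called against control (median -0.025) and 14 were lower against the ApoE particle (median -0.73). Hspa5, the chaperone BiP, had 313 and 298 CPM, 566 and 579 CPM with the ApoE particle, and 321 and 318 CPM in controls, with an interval against control of -0.15 to 0.02.

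Of the 28 synapse genes 0 were called against control (median 0.029) and 27 intervals lay inside 1.5-fold; 15 were higher and 1 lower against the ApoE particle (median 0.18). Grin2b, an NMDA receptor subunit, had 931 and 1004 CPM with the reconstituted particle, 762 and 767 CPM with the ApoE particle and 882 and 871 CPM in controls. Both reconstituted particle libraries were above both controls, by 0.14 ± 0.04 (interval 0.06 to 0.23, unadjusted p = 0.00247, adjusted p = 0.982). Slc17a7, the vesicular glutamate transporter VGLUT1, had 63.2 and 58.8 CPM, 28.9 and 30.0 CPM with the ApoE particle, and 62.5 and 62.8 CPM in controls, with an interval against control of -0.19 to 0.12. Snap25, a vesicle fusion protein, overlapped in all 3 groups.

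The 30 activity-induced genes gave 0 called against control (median -0.099), and 2 higher and 12 lower against the ApoE particle (median -0.45). Fos, an early response transcription factor, had 21.6 and 16.9 CPM with the reconstituted particle, 64.8 and 44.9 CPM with the ApoE particle, and 19.1 and 25.1 CPM in controls. Its interval against control was -1.01 to 0.61, so a 2-fold fall is not bounded out at this depth and replication. Npas4, an activity-dependent neuronal transcription factor, had 12.4 and 13.8 CPM, 32.9 and 24.6 CPM with the ApoE particle, and 11.9 and 16.5 CPM in controls (interval -0.50 to 0.26). Egr1, another immediate early factor, had 15.8 and 14.1 CPM against 16.9 and 19.2 CPM in controls, -0.27 ± 0.12 with an unadjusted p of 0.0403 and an adjusted p of 1.

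The remaining lists also had 0 called members against control. For the 20 cytosolic ribosomal protein genes the members ran from -0.05 to 0.07 (median 0.002), all 20 intervals lay inside 1.5-fold, and 15 were lower against the ApoE particle (median -0.25). The 18 axon growth and cytoskeleton genes had 4 higher at an unadjusted p under 0.05, beside 2.29% of all tested genes, and all 18 intervals inside 1.5-fold. Among them was Dcx, a microtubule protein of young neurons, at 2011 and 1953 CPM against 1820 and 1832 CPM in controls (0.12 ± 0.04, unadjusted p = 0.00373, adjusted p = 0.982). The median was -0.061 for glycolysis and hypoxia (22 tested), -0.014 for lysosome and autophagy (20), -0.07 for heat shock and oxidative stress (14), -0.055 for inflammation (9) and 0.058 for the mitochondrially encoded transcripts (12). In the glycolysis and hypoxia list 10 of 22 members lay below both controls and 1 above, beside 16.7% and 16.4% of all tested genes. Pfkp, the platelet-type phosphofructokinase, had 670 and 639 CPM against 714 and 717 CPM in controls (-0.13 ± 0.04, unadjusted p = 0.0061, adjusted p = 0.982).

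Cell type markers gave 0 called members against control. Gfap, the astrocyte intermediate filament, had 305 and 303 CPM with the reconstituted particle, 99.2 and 118 CPM with the ApoE particle and 331 and 321 CPM in controls. It was just below both controls (-0.10 ± 0.06, interval -0.23 to 0.02) and above the ApoE particle libraries by 1.49 ± 0.06 (adjusted p = 2.86e-12, edgeR). Gfap does not stand for its list. The 13 tested astrocyte markers had a median of 0.028 against control. Against the ApoE particle 8 were called higher and 1 lower (median 0.27). The lower one, Ntsr2, had 4.49 and 3.59 CPM, 5.91 and 7.41 CPM with the ApoE particle, and 2.38 and 3.02 CPM in controls. Markers of vessels and fibroblasts summed to 143 and 166 CPM with the reconstituted particle, 53.4 and 90.7 CPM with the ApoE particle and 210 and 139 CPM in controls. The largest part of this sum in every library was Acta2. It had 85.6 and 100.7 CPM, 19.2 and 46.9 CPM with the ApoE particle, and 138.5 and 78.8 CPM in controls. Of the 9 tested members 6 were called higher and 0 lower against the ApoE particle. Markers of the choroid plexus summed to 26.4 and 30.4 CPM, 43.2 and 56.3 CPM with the ApoE particle and 67.5 and 39.1 CPM in controls. In that list 4 of 5 tested members lay below both controls, beside 16.7% of all tested genes. Most of that sum is Ttr, the thyroid hormone carrier transthyretin, at 20.04 and 24.03 CPM, 34.8 and 47.2 CPM with the ApoE particle and 57.7 and 32.3 CPM in controls. Both reconstituted particle libraries lay below both controls, which differed between themselves, and the interval of Ttr was -2.29 to 0.23. The part of these other cells in the differences from the ApoE particle was not tested.

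**Figure D4:**
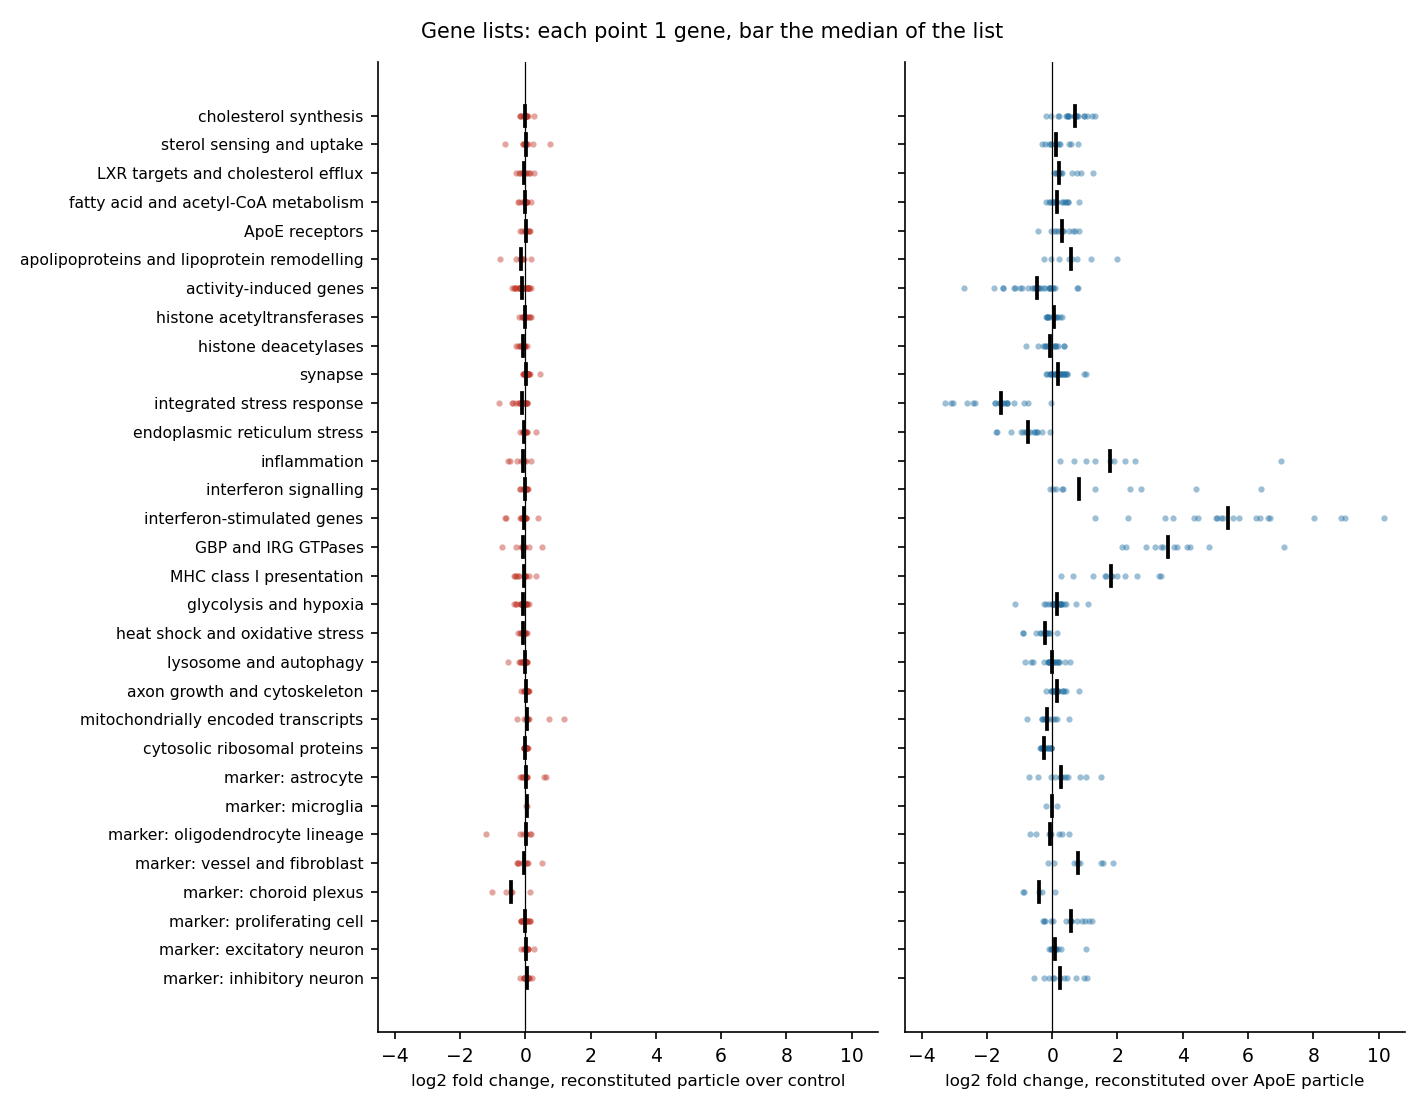
Log2 fold change of each tested member of 31 gene lists (points) with the list's median (black bar), for reconstituted particle over control (left) and reconstituted over ApoE particle (right), on the same horizontal scale. Members lie near 0 against control and spread widely against the ApoE particle, furthest for the interferon-stimulated genes.

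Since no gene was called, the genes of lowest unadjusted p are given as not called. Pitpnm1, a membrane-associated phosphatidylinositol transfer protein (chr19:4099998-4113965, + strand, mm10 as in the deposited table), had 32.8 and 27.7 CPM with the reconstituted particle, 35.4 and 32.9 CPM with the ApoE particle and 18.1 and 20.5 CPM in controls. The reconstituted and ApoE particle libraries were all above the controls, and the difference from control was 0.65 ± 0.11 (interval 0.42 to 0.88; unadjusted p = 4.73e-06, adjusted p = 0.0775, edgeR). The call moved with the settings and with single libraries. With all 6 libraries Pitpnm1 passed the threshold without a filter on low counts (0.65, adjusted p = 2.31e-05, edgeR). It also passed with the GC trend removed (0.70, adjusted p = 0.0381, edgeR). A fit of the 4 reconstituted particle and control libraries alone called it too (0.65, adjusted p = 0.00688, edgeR). It further passed without ApoE particle library 1 (0.65) or 2 (0.65), control library 2 (0.74) or reconstituted particle library 2 (0.77). It was not called against the ApoE particle (-0.18 ± 0.10, adjusted p = 0.26).

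Other genes of low p were not called in the main fit. Slc44a5, Runx1t1, Zbtb20, Tyw3 and Lcor were higher by 0.18 to 0.75 on the log2 scale. Adam11, Lrrc45, Tle2, Kcnt1 and Ryr1 lay between -0.58 and -0.33. The adjusted p of these genes ran from 0.648 to 0.982 (edgeR). Each had both reconstituted particle libraries on one side of both controls, which picking by low p in these same libraries favours. Over all tested genes 16.4% lay above both controls and 16.7% below. With no filter on low counts, Slc44a5 (adjusted p = 0.0107), Runx1t1 (0.049), Adam11 (0.0319) and Lrrc45 (0.0319) were called (edgeR). Slc44a5, a choline transporter-like protein, had 62.8 and 71.2 CPM, 37.6 and 36.03 CPM with the ApoE particle, and 54.8 and 48.4 CPM in controls. Ryr1, a calcium release channel, had 12.1 and 10.04 CPM, 18.7 and 14.8 CPM with the ApoE particle, and 14.6 and 18.6 CPM in controls. Adam11, a catalytically inactive member of the ADAM family, had 58.8 and 56.9 CPM, 56.4 and 53.5 CPM with the ApoE particle, and 68.5 and 77.4 CPM in controls.

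Malat1, a long noncoding RNA kept in the nucleus, is named here because leaving out a library called it, after its values were seen. It had 358 and 328 CPM with the reconstituted particle, 505 and 345 CPM with the ApoE particle and 488 and 472 CPM in controls. Both reconstituted particle libraries lay below both controls, by 0.48 ± 0.23 on the log2 scale, but the disagreement of the ApoE particle libraries widened the interval to -1.18 to 0.21 (adjusted p = 1). Without ApoE particle library 1 its adjusted p was 2.21e-10, without library 2 it was 8.06e-11, and in a fit of the 4 reconstituted particle and control libraries alone it was 7.55e-08 (edgeR).

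The 5 genes of 5 CPM or more that differed by over 2-fold, chosen here for their size after the values were seen, had replicates that disagreed in at least 1 of the 3 groups. Ppp1ca, a catalytic subunit of protein phosphatase 1, had 21.8 and 17.7 CPM with the reconstituted particle, 67.2 and 18.5 CPM with the ApoE particle, and 45.01 and 34.3 CPM in controls (interval -3.46 to 1.44). Gstp1, a glutathione transferase with a close copy beside it, had 13.7 and 13.0 CPM, 10.3 and 8.58 CPM with the ApoE particle, and 8.28 and 1.57 CPM in controls (-0.96 to 3.82). Ttr was given above. Cacng8, an auxiliary subunit of AMPA receptors, had 13.2 and 16.7 CPM, 10.2 and 11.3 CPM with the ApoE particle, and 4.14 and 9.94 CPM in controls (-0.01 to 2.19). The predicted gene Gm29216 had 3.94 and 4.30 CPM, 2.78 and 7.63 CPM with the ApoE particle, and 28.6 and 4.18 CPM in controls, so its lower mean with the reconstituted particle comes from 1 control library. Of these 5, Ppp1ca was called without ApoE particle library 1 (adjusted p = 2.25e-05) or 2 (0.000849), Gstp1 without control library 1 (7.06e-09), and Cacng8 (1.77e-05) and Ttr (0.0365) without control library 2, all in edgeR.

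The small differences moved with base composition. Over 16366 tested genes with a GC value (99.9%), Spearman's rho of transcript GC content and log2 fold change of reconstituted particle over control was -0.194; this is a description across genes, which share the same libraries. It came mainly from 1 library. The medians that follow are over genes of 5 CPM or more. Their 5 GC bins were set to hold equal numbers of all tested genes. In the lowest bin (28.7 to 43.5%) the median log2 difference from the mean of the controls was 0.083 in reconstituted particle library 1 and 0.010 in library 2. In the highest bin (55.3 to 73.7%) it was -0.058 and -0.008. The 2 ApoE particle libraries were tilted like library 1, with 0.075 and 0.096 in the lowest bin. Of the 100 genes of lowest p, the 50 that were higher had a median GC content of 42.3% and the 50 that were lower 55.3%, against 49.3% over all tested genes. With the GC trend of each library removed, 1 gene was called, Pitpnm1 (0.70, adjusted p = 0.0381).

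**Figure D5:**
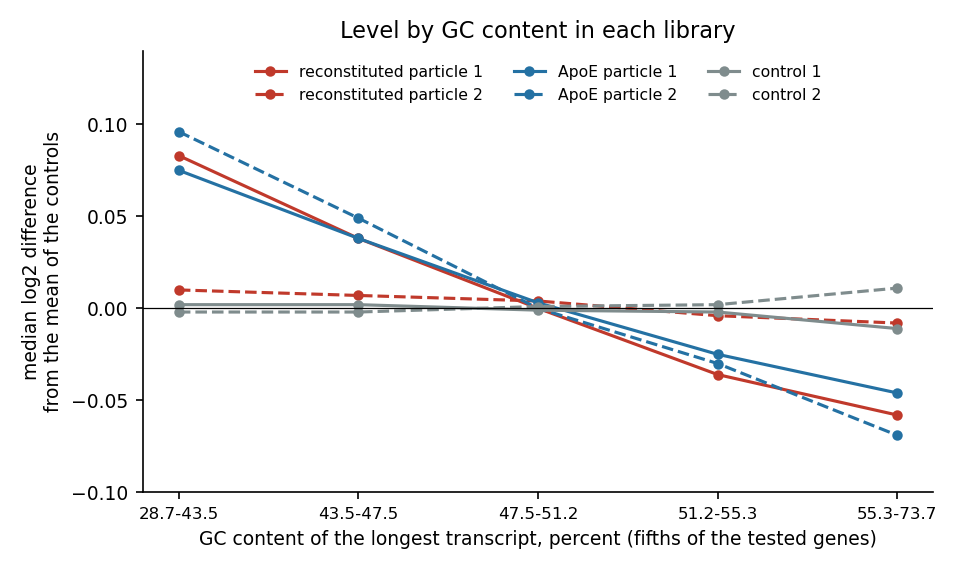
Median log2 difference from the mean of the 2 controls (vertical axis) by 5 bins of transcript GC content (horizontal axis, percent), 1 line per library. The bins were set to hold equal numbers of all tested genes, and the medians are over genes of 5 CPM or more. Reconstituted particle library 1 and both ApoE particle libraries fall from left to right, and reconstituted particle library 2 stays within 0.010 of 0.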

How the data were processed

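RNA from primary neurons was measured as raw counts per gene, which the authors deposited as whole numbers with no normalization. Per the labels' protocols, total RNA was extracted with Trizol and made into NEBNext Ultra libraries for Illumina sequencing. The mm10 build and the tools HTSeq 0.6.0, HISAT2 2.1.0 and Bowtie2 2.2.3 are listed, with no role, in the submitters' processing notes; the strand setting is not given in the sources used here, so overlapping and antisense genes cannot be told apart. From the counts, edgeR 4.0.16 in R 4.3.3 fitted the 6 libraries of the second set in 1 model (filterByExpr, TMM scaling, robust quasi-likelihood test, Benjamini-Hochberg adjustment over all 16388 tested genes, threshold 0.05). Fold changes are log2 values ± 1 standard error from the fit. The 95% intervals are approximate: the estimate plus or minus a t quantile times this standard error. They are not built from the quasi-likelihood test and can part from its p. For Flt1, ApoE particle against control, p was 0.0419 (edgeR) while the interval was -2.67 to 0.003. Of 30984 genes, 1489 rows lacking a value in the control and ApoE particle columns were dropped, and 25 symbols stored as dates were restored by gene identifier. Identifiers of 30908 genes were found in the reference gene names.

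Genes named were, by rule, those of lowest p in each direction where none was called, up to 6 a direction, the 2 of lowest p in each list, and a panel of 27; some are not reported here; from the rest the text gives a selection, and others are named with the reason. The panel, the 31 lists and the comparison were chosen with earlier results of these data known. Alternatives tried were other scalings, filters, DESeq2 1.42.0, a fit of 4 libraries, a replicate block, each library left out, and, added after seeing the data, removal of each library's GC trend. The test was also run on simulated counts in which every gene had the same spread between libraries. That run cannot show how the test or its intervals do for genes whose libraries vary more.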

Additional observations from a re-analysis of the deposited data

Results flagged for a closer look

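The responses to the reconstituted particle and to the ApoE particle differed by a direct test within the same fit: 3319 genes were called between these groups, 1864 higher and 1455 lower with the reconstituted particle (edgeR's quasi-likelihood test). The reconstituted particle had 0 calls against control and the ApoE particle 3617 against the same 2 control libraries.

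Rows left out of every comparison still held counts: 1489 genes had values in the reconstituted particle columns and none in the control or ApoE particle columns. They summed to 38233 counts in reconstituted particle library 1 and 38053 in library 2. Of these genes 667 were at 0 in both libraries, and 11 were over 100 counts. The largest were septins, filament-forming GTPases of the cytoskeleton, whose symbols were stored as dates: Sept3 had 13427 and 13465 counts, Sept5 5685 and 5824, and Sept11 4625 and 4394. These genes were not tested against control.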

How the results depend on the processing

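Against control the count of called genes was 0 in the main edgeR fit, and also 0 with RLE size factors, with library totals, with a minimum of 5 CPM in 2 libraries and with DESeq2. It was 8 (4 higher, 4 lower) with no filter on low counts, and 4 (1 higher, 3 lower) in a fit of the 4 libraries alone, where the spread of the ApoE particle libraries no longer entered, among them Malat1 (-0.48), Ppp1ca (-1.01) and Pitpnm1 (0.65). With the GC trend removed it was 1 (1 higher, 0 lower). With a replicate block it was 1 (1 higher), Uqcrc1 at 0.67. The replicate differences of the 3 groups correlated with r of -0.075 to 0.042, so no large shared effect of the replicate number was seen. These values cannot show whether same-numbered libraries were matched, which the labels do not state. Leaving out each library gave 1 to 4 called, 1 to 2 higher and 0 to 3 lower; the lone library of a group is then assumed to vary like the others. Pitpnm1 was called under 7 of 14 alternatives; the cause was not tested. Genes with an interval inside 2-fold ran from 11706 to 13326 over the alternatives.

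Against the ApoE particle, leaving out each library gave 2249 to 3314 called and 930 to 1517 lower; without ApoE particle library 1 it was 930 lower and without reconstituted particle library 2 it was 949. ApoE particle against control gave 2297 to 3836 called and 931 to 1854 higher, the lowest without control library 1 (2297 and 931), and 1089 higher with DESeq2. Of 434 list medians run under alternatives, 384 moved by less than the replicate spread and 34 had the other sign; in lists of 8 or more members no median exceeded 0.231 in size. Depth and 2 libraries a group limit what can be bounded under 5 CPM.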
